A study of Papio hamadryas with 11 samples.

Results

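Kupffer cells are the macrophages that live in the sinusoids of the liver. Here 38 genes of these cells and of macrophages in general were followed in the liver of 11 baboon fetuses (Papio hamadryas) close to term. The genes were taken by symbol from a given list, and the probe of a gene was the one with the highest mean among its probes detected (detection p under 0.05) on 4 or more arrays. All 38 genes had a probe on the array, 67 probes in all. 26 of the 38 passed the detection filter, and 20 of these were detected on all 11 arrays. They stand among 10619 features tested, out of 48803 probes.

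The study asked how the fetal liver transcriptome differs when the mother is obese. Total RNA of 5 fetuses of obese mothers (MO1 to MO5) and 6 fetuses of control mothers (CON1 to CON6) was hybridised to human Illumina bead arrays, 1 array per fetus. All fetuses were 165 days old, which is 0.9 of gestation. MO1, MO2 and MO3 were female and MO4 and MO5 male, and CON1, CON2 and CON3 were female and CON4, CON5 and CON6 male. The first part of the array name, which names the slide, divides the arrays in another way. Slide 2 held the 5 maternal obese arrays with CON5 and CON6, and slide 1 held CON1 to CON4. In females maternal obesity and slide are therefore the same split and cannot be told apart. Among males, CON5 and CON6 shared slide 2 with MO4 and MO5. The labels describe whole liver, with no sorting of cells. What the labels mean by an obese mother (diet, weight) is not given in the sources used here.

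In the fetal liver, macrophages engulf the nuclei that maturing red cells expel, clear dying cells and recover the iron of haem. They depend on the growth factor receptor CSF1R, take up particles through scavenger, Fc and complement receptors, and digest them in lysosomes. They also secrete the C1q chains, with which the classical complement pathway starts.

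Values below are normalized log2 intensities, and a difference of 1 is a doubling of the intensity. The probes match human sequence and can bind baboon RNA less well where the species differ, and no level of a gene is set against that of another. In whole tissue, fewer macrophages and less RNA per macrophage cannot be told apart. The 11 arrays detected 20.8% to 26.8% of the probes and correlated with each other at 0.927 to 0.982 over the features tested, and no array repeated another. Median intensities before normalization were 69.7 to 80.3 on slide 2 and 62 to 65.6 on slide 1.

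The macrophage markers CD163, CD14 and CSF1R were detected on all 11 arrays, and so were MARCO, VSIG4 and TIMD4. The remaining 12 genes did not pass the filter. The scavenger receptor MSR1 was detected on CON1 and CON6 but on no maternal obese array. This contrast hangs on the threshold, with a detection p of 0.0303 in CON1, 0.0461 in CON6 and 0.0527 in MO5. Its medians were 4.99 in maternal obese and 5.01 in control livers. The other 11 were not detected on any array. These were CD5L, a protein secreted by macrophages, the mannose receptor MRC1, the beta-glucan receptor CLEC7A, the Fc receptors FCGR1A and FCGR2B, the lysosomal protease CTSS, the phagosomal metal transporter SLC11A1, the oxidase subunit CYBB, the endotoxin receptor TLR4, the inhibitory receptor LILRB5 and the integrin chain ITGAM. With human probes an undetected gene is not shown to be silent in these livers.

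Between maternal obese and control livers, 21 of the 26 measured macrophage genes had a difference below 0, against 42.2% of all features. Their median was -0.15, with a range of -0.70 to 0.48, while the median of all features was 0.05. Among the 20 genes detected on every array, 18 lay below 0. These 20 genes varied together over the arrays, with a median Pearson correlation of 0.54 over their pairs. Counts of genes on 1 side of 0, here and below, are therefore not counts of independent observations. None of the 26 passed an adjusted p of 0.05 in limma with Benjamini-Hochberg adjustment over all features, and neither did any other feature (0 of 10619, percent called 0; 1398 at an unadjusted p under 0.05). The smallest limma adjusted p of a macrophage gene was 0.345, that of ITGB2. Before adjustment, 3 of the 26 had a p under 0.05, namely CD163, LYZ and ITGB2, all lower in maternal obese livers. In that direction 4.41% of all features did so. ITGB2 and SIGLEC1 passed the detection filter through controls alone. For them the filter itself favoured a lower value in maternal obese livers, and their direction is no support. Over the 20 genes detected throughout, 2 had such a p, CD163 and LYZ, and the smallest limma adjusted p was 0.369. No macrophage gene had values that separated the groups, which 1.39% of all features did. Without CON6 the median was -0.07 with 16 of 26 genes below 0, and without CON4 it was -0.25. With slide as a covariate, where the comparison rests on CON5 and CON6, it was -0.31 with 21 of 26 below 0, and 4 genes turned their sign. Those controls lay far apart. The mean of the 20 genes, each relative to its own mean, was -0.22 in CON5 and 0.54 in CON6. Maternal obese arrays ran from -0.42 to 0.15, so CON5 lay inside their range and CON6 above it.

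**Figure D1:**
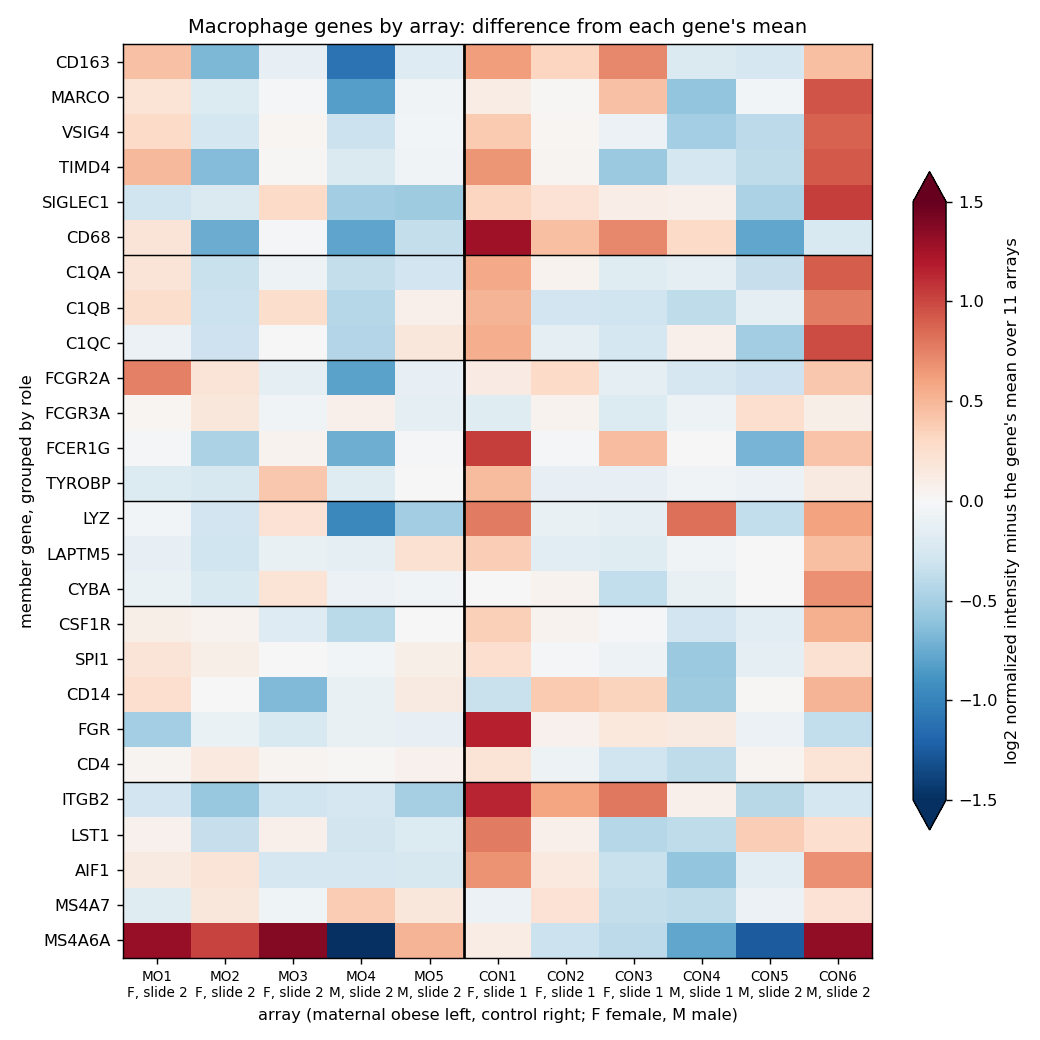
Difference of each of the 26 measured macrophage genes from its own mean over 11 arrays (log2, colour), with genes grouped by role down the page and arrays across it, maternal obese left and control right; F is female, M male, and colours saturate at 1.5. CON6 and CON1 are red for most genes and MO4 is blue for most.

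The scavenger and uptake receptors bind damaged proteins, lipids, bacteria and dying cells. All 6 measured members of 10 lay below 0, with a median of -0.40, and none passed the test. Of these, SIGLEC1 passed the filter through controls alone, so its direction is no support. CD163, which takes up haemoglobin bound to haptoglobin, read 8.96, 7.85, 8.40, 7.41 and 8.32 in MO1 to MO5, and 8.27 to 9.24 with a median of 8.91 in controls. The lowest values came from MO4 and MO2, while MO1 lay within the upper part of the control range, so that the groups overlapped. The difference was -0.60 (SE 0.27, limma adjusted p = 0.369), a level 0.658 times that of controls. It was -0.43 (SE 0.37) with slide as a covariate.

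CD68, a glycoprotein of macrophage lysosomes, read 9.33, 8.40, 9.13, 8.35 and 8.78 in MO1 to MO5, and 8.36 to 10.42 with a median of 9.51 in controls. The 2 lowest controls were CON5 at 8.36 and CON6 at 8.92, both of slide 2, and the 4 controls of slide 1 lay above every maternal obese array. The difference of -0.63 (SE 0.32, limma adjusted p = 0.393) became 0.16 (SE 0.32) with slide as a covariate. The other detected probes of CD68 differed by -0.18 (SE 0.17) and -0.13 (SE 0.19), and they correlated with the first probe at 0.32 and 0.77 over the 11 arrays.

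MARCO, a receptor for bacteria and particles, read 8.06, 7.65, 7.83, 7.03 and 7.80 in MO1 to MO5, and 7.26 to 8.80 with a median of 7.92 in controls. MO4 was the lowest of the 11 arrays and CON6 the highest. The difference was -0.33 (SE 0.25) without and -0.63 (SE 0.33) with slide as a covariate. VSIG4, a complement receptor, lay at 7.52 to 8.13 in maternal obese and 7.34 to 8.74 in control livers, a difference of -0.12 (SE 0.23). TIMD4, a receptor for phosphatidylserine on dying cells, lay at 7.06 to 8.18 in maternal obese and 7.14 to 8.63 in control livers, a difference of -0.15 (SE 0.28). In both genes CON6 was again the highest array. SIGLEC1, which binds sialic acid, was near the detection limit, being detected on 2 of 5 maternal obese and 5 of 6 control arrays, with a difference of -0.47 (SE 0.23, limma adjusted p = 0.389).

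**Figure D2:**
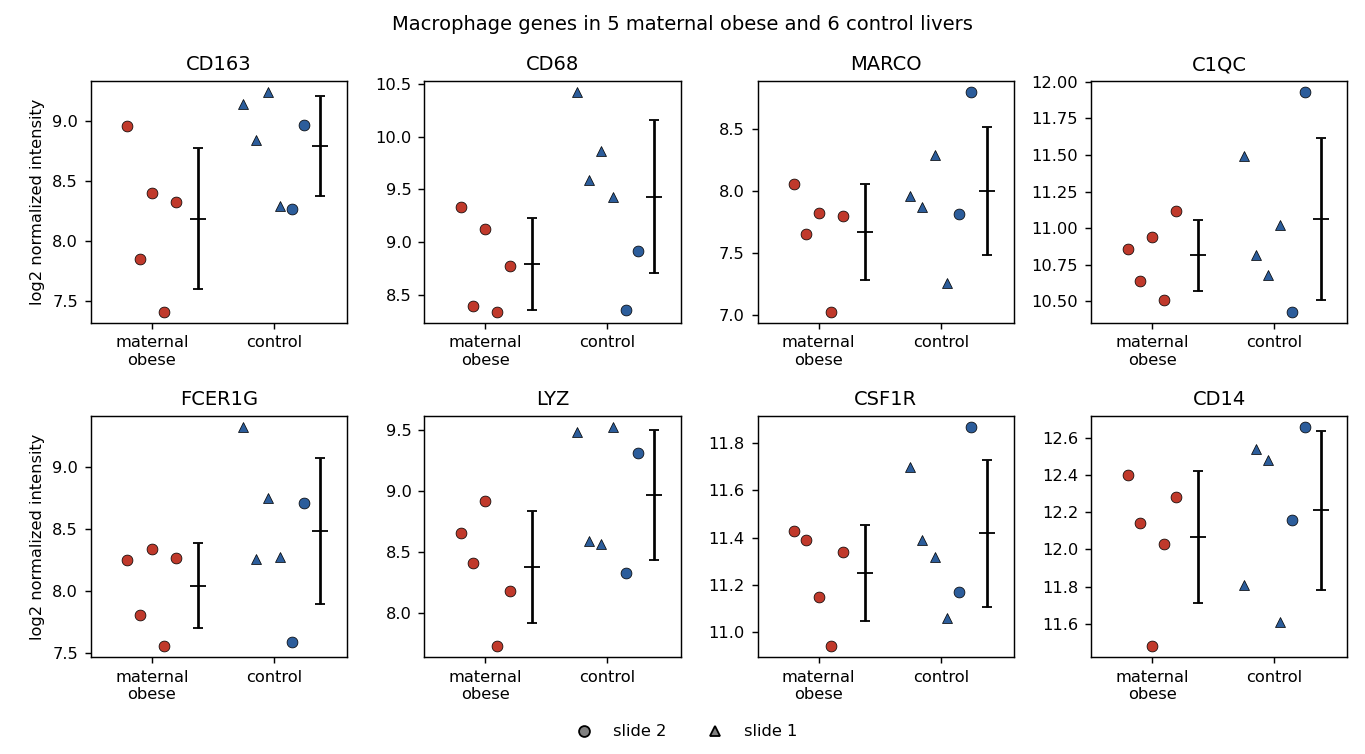
Normalized log2 intensity of 8 macrophage genes in 5 maternal obese (left) and 6 control (right) livers; each point is an array, circles are slide 2 and triangles slide 1, and bars are mean ± SD. The groups overlap in every panel, and in CD68 the 2 circles among the controls lie below all 4 triangles.

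The 3 C1q chains assemble into 1 secreted complex, and all 3 were measured. C1QA read 8.30, 7.76, 8.03, 7.75 and 7.82 in MO1 to MO5, and 7.76 to 9.01 with a median of 8.06 in controls. C1QB read 11.05, 10.47, 11.05, 10.36 and 10.87 in MO1 to MO5, and 10.41 to 11.56 with a median of 10.57 in controls. C1QC read 10.86, 10.64, 10.94, 10.51 and 11.12 in MO1 to MO5, and 10.43 to 11.93 with a median of 10.92 in controls. In each chain CON6 was the highest array and CON1 the next, and apart from CON5 in C1QC, the lowest array there, the remaining controls lay within the range of the maternal obese arrays. The differences were -0.32 (SE 0.22) for C1QA, -0.06 (SE 0.23) for C1QB and -0.25 (SE 0.24) for C1QC. None was larger than the spread between arrays, the smallest limma adjusted p being 0.501.

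Fc receptors bind antibody-coated particles. FCER1G is the signalling chain of several activating Fc receptors, FCGR3A among them, while FCGR2A carries a signalling motif of its own. TYROBP is a related adaptor that serves other myeloid receptors. 4 of 6 members were measured, 3 of them below 0, with a median of -0.06 and none past the threshold. FCER1G read 8.25, 7.80, 8.34, 7.56 and 8.27 in MO1 to MO5, and 7.59 to 9.32 with a median of 8.49 in controls. CON1 was the highest array, and MO4 and CON5 were the lowest. The difference was -0.44 (SE 0.26, limma adjusted p = 0.452). It moved to -0.11 (SE 0.35) once slide entered the fit. TYROBP differed by -0.08 (SE 0.15), FCGR2A by -0.04 (SE 0.24) and FCGR3A by 0.03 (SE 0.12). In FCGR2A the array MO1 was the highest of all 11 at 9.30 and MO4 the lowest at 7.74. Its other detected probe did not follow it (r = -0.17 over 11 arrays). The Fc receptor genes have near-identical relatives, and their probes may bind more than 1 transcript.

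Of the genes of the phagosome and lysosome, 3 of 6 were measured and all 3 lay below 0, with a median of -0.16 (-0.39 with slide as a covariate). LYZ, the lysozyme that breaks bacterial cell walls, read 8.66, 8.41, 8.92, 7.73 and 8.18 in MO1 to MO5, and 8.33 to 9.53 with a median of 8.95 in controls. MO4 and MO5 were the lowest arrays, and CON4, CON1 and CON6 the highest. The difference was -0.59 (SE 0.27, limma adjusted p = 0.374), a level 0.665 times that of controls. It was -0.44 (SE 0.37) once slide entered the fit. LAPTM5, a lysosomal membrane protein of blood cells, differed by -0.16 (SE 0.15). CYBA, the small subunit of the phagocyte oxidase, differed by -0.09 (SE 0.16), and by -0.39 (SE 0.19) with slide as a covariate.

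The signalling genes gave 5 measured members of 7, with 3 below 0, a median of -0.14 (-0.06 with slide as a covariate) and none past the threshold. CSF1R, the receptor on which macrophages depend to survive, read 11.43, 11.39, 11.15, 10.94 and 11.34 in MO1 to MO5, and 11.06 to 11.87 with a median of 11.35 in controls. MO4 was the lowest array, and CON6 and CON1 the highest. The difference was -0.17 (SE 0.16, limma adjusted p = 0.631). SPI1, the transcription factor PU.1 of the myeloid lineage, differed by 0.12 (SE 0.14), and CD4, which macrophages of primates carry at low levels, by 0.11 (SE 0.13).

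CD14, which passes endotoxin to TLR4, read 12.40, 12.14, 11.48, 12.03 and 12.28 in MO1 to MO5, and 11.61 to 12.66 with a median of 12.32 in controls. Its lowest array was MO3, followed by CON4 and CON1, although CON1 was the highest array for 6 of the 20 genes detected throughout. The difference was -0.14 (SE 0.22), and its second probe gave -0.36 (SE 0.31). FGR, a Src-family kinase, was detected on 4 of 5 maternal obese and 5 of 6 control arrays and differed by -0.39 (SE 0.22, limma adjusted p = 0.428). CON1 stood at 6.96, above all other arrays, and with slide as a covariate the difference was 0.0087 (SE 0.26).

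Among the adhesion and other membrane genes, 5 of 6 were measured and 3 lay below 0, with a median of -0.15 (-0.04 with slide as a covariate). ITGB2, the common chain of the leukocyte integrins, read 5.45, 5.18, 5.44, 5.49 and 5.25 in MO1 to MO5, and 5.33 to 6.88 with a median of 6.07 in controls. The 4 controls of slide 1 lay above all maternal obese arrays, and CON5 at 5.33 and CON6 at 5.48 lay among them. The difference was -0.70 (SE 0.25, limma adjusted p = 0.345). It shrank to -0.04 (SE 0.23) once slide entered the fit. ITGB2 was detected on 2 of 5 maternal obese and 5 of 6 control arrays, so that, like SIGLEC1, it passed the filter through controls alone.

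LST1, a myeloid membrane protein, differed by -0.25 (SE 0.20), and AIF1, an actin-binding protein of macrophages, by -0.15 (SE 0.23). MS4A7, a membrane-spanning protein found in macrophages, differed by 0.18 (SE 0.15). Its relative MS4A6A read 9.50, 9.20, 9.57, 5.27 and 8.70 in MO1 to MO5, and 6.94 to 9.52 with a median of 7.83 in controls. In MO4 its probe was not detected, and the other 4 maternal obese arrays lay above all controls except CON6. The difference was 0.48 with an SE of 0.70. Single arrays moved it, from 0.20 without MO3 to 1.27 without MO4, and with slide and sex as covariates it was -0.82.

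**Figure D3:**
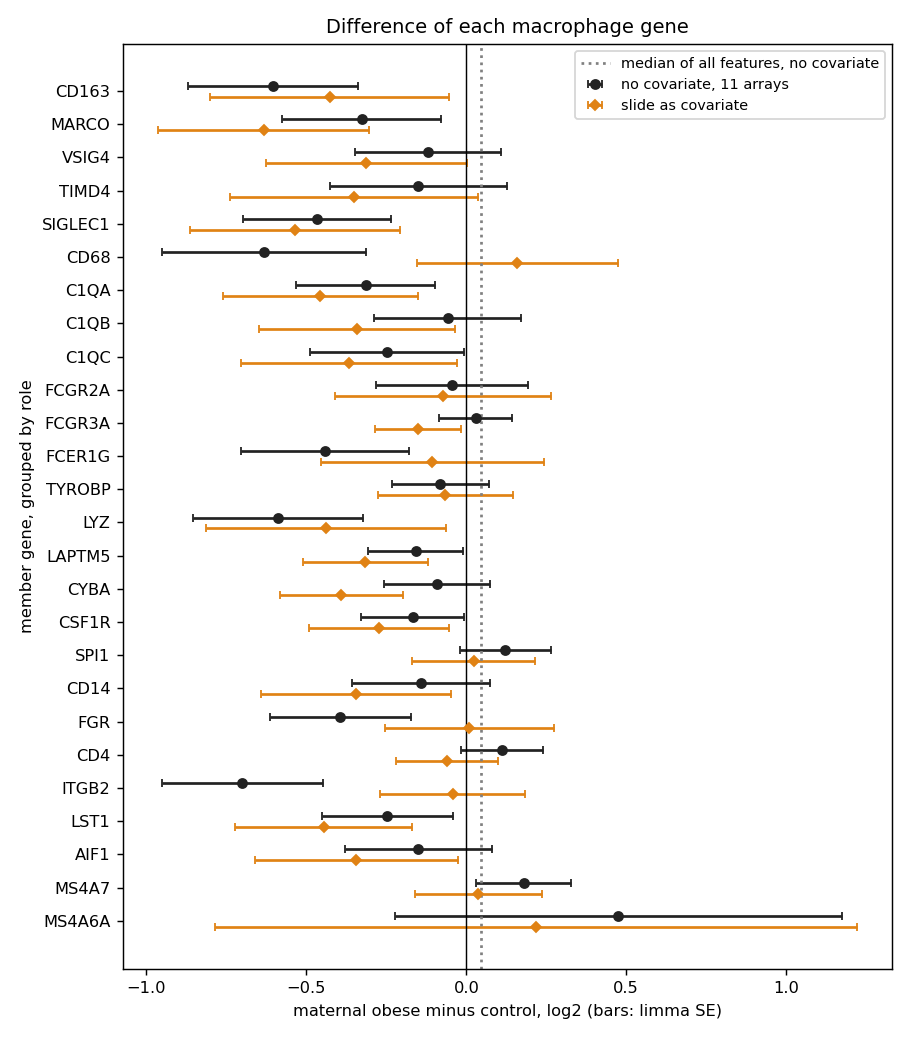
Difference of each measured macrophage gene, maternal obese minus control, in log2 with limma's SE, without a covariate (black circles) and with slide as a covariate (orange diamonds). The dotted line is the median of all features, 0.05; CD68 (0.16), FGR (0.0087) and ITGB2 (-0.04) move from well below 0 to near or above it, and MARCO, CYBA and C1QB move further below 0.

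The 20 genes detected on every array varied together from liver to liver. Over their 190 pairs the median Pearson correlation across the 11 arrays was 0.54, with 9 pairs negative. On the 7 arrays of slide 2 it was 0.66 with 4 pairs negative, and without CON6 it was 0.47 with 24 pairs negative. Over all features detected on the 11 arrays, the median correlation of a feature with the mean of the 20 genes was 0.02. The like measure for the 20 genes, each with the mean of the others, ran from 0.22 to 0.94. A median over pairs of other features was not computed. These correlations describe arrays that share slides and sexes. The mean of the 20 genes, each taken relative to its own mean, was 0.15, -0.24, -0.01, -0.42 and -0.07 in MO1 to MO5, and 0.47, 0.05, -0.04, -0.21, -0.22 and 0.54 in CON1 to CON6. MO4 was the lowest array for 9 of the 20 genes, while CON6 was the highest for 11 and CON1 for 6. The spread within controls was thus wider than the distance between the groups, and 4 of the 6 controls lay inside the range of the maternal obese arrays.

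C1QA followed the mean of the other 19 genes most closely (r = 0.94), then VSIG4 (0.92) and CSF1R (0.91). CD4 (0.42) and CD14 (0.22) were the lowest over the 11 arrays. Without CON6 the lowest were CYBA (0.19, against 0.57 with it) and CD14 (-0.056), and on slide 2 the lowest was TYROBP (0.39). Outside the gene lists used here, the features most like the mean of these genes were FOLR2 (r = 0.94), DOK4 (0.86), DENND2D (0.85), RAB32 (0.85), SIGLEC11 (0.84) and RBMS1 (0.83), over 11 arrays. FOLR2, a folate receptor, read 6.50 to 7.46 in maternal obese and 6.67 to 7.82 in control livers.

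**Figure D4:**
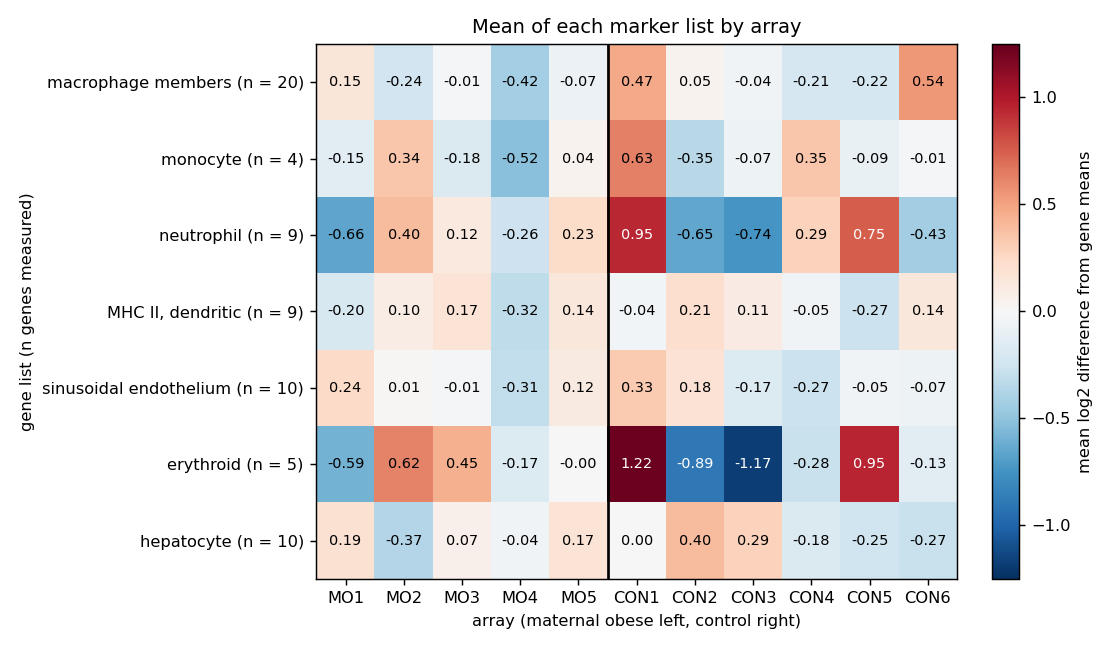
Mean of the measured genes of each list, relative to each gene's mean over the arrays (log2, printed in each cell), on the 5 maternal obese (left) and 6 control (right) arrays. CON6 is high for the macrophage genes and not for neutrophil or erythroid genes, while CON1 is high for all 3.

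Markers of other cells that share genes with macrophages were read on the same arrays. For monocytes 4 of 8 markers were measured and all 4 lay below 0, with a median of -0.17. The summed intensity of the 7 monocyte markers with a probe was 1335 to 2234 in maternal obese and 1611 to 2571 in control livers. Such sums take in markers that were not detected, and so hold background too. The sums that follow cover 17 neutrophil markers and 14 of MHC class II and dendritic cells. FCN1 was detected on 8 arrays, and CCR2 and CD300E on none. For neutrophils 9 of 17 were measured, 6 below 0, with a median of -0.07 and a summed intensity of 2201 to 7117 in maternal obese and 1805 to 13475 in control livers. MPO was detected on all arrays, and AZU1, DEFA4 and S100A8 on none. For MHC class II and dendritic cells 9 of 15 were measured, 6 below 0, with a median of -0.10 and a summed intensity of 3255 to 4720 in maternal obese and 3359 to 5158 in control livers. CD74 was detected on all arrays, and HLA-DRB1, HLA-DPB1, CIITA, CLEC9A and FLT3 on none. None of these markers passed the test in limma. In MO4 the monocyte mean was -0.52. In CON1 it was 0.63, beside 0.95 for neutrophils and 1.22 for erythroid genes, whereas in CON6 these means were -0.01, -0.43 and -0.13. With slide as a covariate the medians were -0.16 for monocytes, -0.20 for neutrophils and -0.01 for MHC class II and dendritic cells. The part of these cells in the macrophage values was not tested.

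Slide could be read within controls, setting CON5 and CON6 of slide 2 against CON1 to CON4 of slide 1. CON5 and CON6 were male, and CON4 was the only male on slide 1. limma called 382 features, or 3.6% of those tested, 33 higher and 349 lower on slide 2. None of the 26 macrophage genes was called, and 2 had an unadjusted p under 0.05, where 23.4% of all features did. Of these 26, 19 lay above 0, with a median of 0.21, where 60.4% of all features lay above 0 with a median of 0.10. Without CON6 the median of the macrophage genes was -0.25, without CON5 it was 0.43, and without CON4 it was 0.14.

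CD68 read 8.36 and 8.92 in CON5 and CON6, against 10.42, 9.59, 9.87 and 9.43 in CON1 to CON4 (difference -1.19, SE 0.30, limma adjusted p = 0.0740). ITGB2 read 5.33 and 5.48 in CON5 and CON6, against 6.88, 6.33, 6.53 and 5.82 in CON1 to CON4 (difference -0.99, SE 0.28, limma adjusted p = 0.0984). Without CON4 the adjusted p of ITGB2 was 0.0294, the only such call. Together with FGR these genes did not overlap between the slides, and FCGR3A did not overlap in the other direction, 4 of 26 genes against 36.4% of all features. Within slide 2, LST1 was the only macrophage gene without overlap between maternal obese arrays (6.77 to 7.20) and controls (7.48 and 7.37), 1 of 26 against 13.8% of all features.

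**Figure D5:**
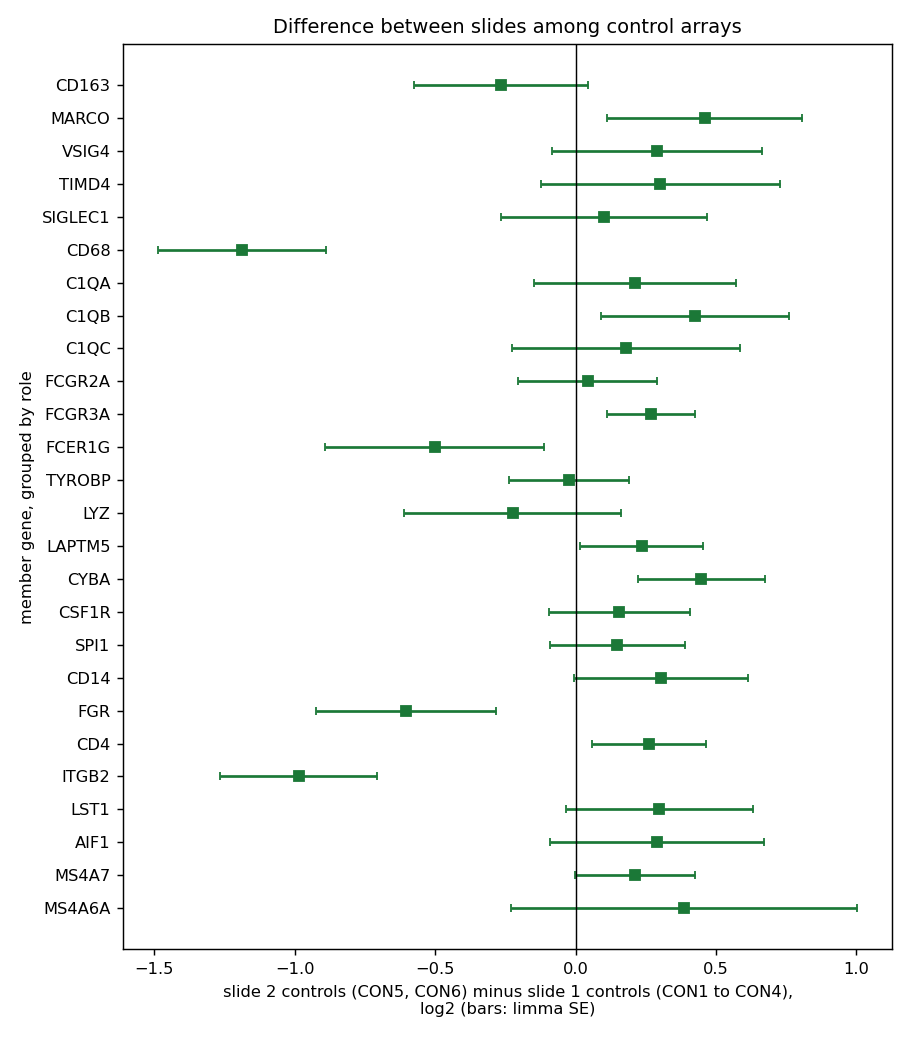
Difference of each measured macrophage gene among controls, 2 arrays on slide 2 minus 4 on slide 1, in log2 with limma's SE. CD68 and ITGB2 lie furthest below 0, at -1.19 and -0.99.

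In the comparison of 6 female with 5 male livers, with condition as a covariate, 21 of the 26 genes lay above 0, against 42.1% of all features, with a median of 0.14. Single arrays moved this median, to 0.09 without CON1, 0.06 without CON4, 0.07 without CON5 or without MO4, and 0.25 without CON6, with 4 to 10 genes below 0 over all such omissions. limma called 5 of all features (0.0471%) and none of the macrophage genes, of which 3 (CD68, ITGB2 and CD163) had an unadjusted p under 0.05, where 10.9% of all features did. CD68 averaged 9.46 in females and 8.77 in males (difference 0.76, SE 0.25, limma adjusted p = 0.351). ITGB2 averaged 5.97 in females and 5.47 in males (difference 0.57, SE 0.20), and CD163 averaged 8.74 in females and 8.25 in males (difference 0.55, SE 0.23). Of the arrays of slide 1, 3 were female and 1 male, so slide moved with sex. With slide as a further covariate the median was 0.27 with 3 of 26 genes below 0, and again none was called. On the deposited values without normalization the direction was lost, with a median of -0.03 and 16 of 26 genes below 0, where 79.9% of all features lay below 0 against 57.9% after normalization.

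The interaction of sex and maternal obesity was called for none of the macrophage genes and for no other feature (0 of 10619, percent called 0; 780 at an unadjusted p under 0.05, or 7.35%, 1 of them a macrophage gene, ITGB2). Within females the macrophage genes had a median of -0.16 with 18 of 26 below 0, and within males a median of -0.25 with 22 of 26 below 0. ITGB2 differed by -1.22 in females and by -0.17 in males (interaction -1.05, SE 0.29, limma adjusted p = 0.556). LYZ went the other way, with -0.22 in females and -1.10 in males (interaction 0.88, SE 0.50). Every female control lay on slide 1 and every female maternal obese array on slide 2. The differences within females are therefore differences between slides as well. Among controls ITGB2 differed by -0.99 between the slides. With slide as a covariate the median interaction of the macrophage genes was -0.24, against 0.09 without it. In that fit the slide term rests on CON4 against CON5 and CON6, since only male controls lay on both slides.

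Further genes of macrophage pathways were read as lists of 125 genes, 114 of which had a probe and 79 of which were measured. Of these, 35 lay above and 44 below 0, with a median of -0.05, and none passed the test. In whole liver other cells can contribute to the values of these genes, and their part was not tested. By list, 3 of 10 growth and transcription factors, 8 of 13 genes of ITAM and toll-like receptor signalling, 12 of 16 oxidase and lysosomal enzymes, 6 of 7 genes of haem and iron recycling, 8 of 15 engulfment genes, 5 of 10 pan-leukocyte genes and 2 of 8 cytokines and chemokines lay below 0. With slide as a covariate some of these counts turned. The growth and transcription factors then had 7 of 10 below 0 (median -0.09, against 0.08 without it), the engulfment genes 4 of 15 (0.09, against -0.13) and the pan-leukocyte genes 7 of 10 (-0.12, against -0.02).

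Among the 5 genes with the smallest p in each direction, CSF2RA, a chain of the GM-CSF receptor, read 10.35, 10.78, 10.27, 10.43 and 10.30 in MO1 to MO5, and 9.74 to 10.25 in controls. Every maternal obese array lay above every control, and the difference was 0.48 (SE 0.13, limma adjusted p = 0.275), with 0.35 when slide was a covariate. IRF8, a transcription factor of the mononuclear phagocyte lineage, read 6.04, 5.91, 5.91, 5.95 and 5.81 in MO1 to MO5, and 6.06 to 6.72 in controls. Every maternal obese array lay below every control, with a difference of -0.38 (SE 0.13, limma adjusted p = 0.339). The difference was -0.29 once slide entered the fit. Of all features, 1.39% had groups that did not overlap. CSF2RA and IRF8 were named for their small p, so that their lack of overlap adds no support.

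The other genes above 0 were the cytokine IL10 (0.30), the protease CTSH (0.29), the oxidase subunit NCF4 (0.39) and the selectin ligand SELPLG. Those below 0 were the signal transducer STAT3 (-0.93), the saposin precursor PSAP (-0.37), the leukocyte membrane gene EVI2B (-0.36) and the kinase LYN. LYN was detected on no maternal obese array and on 4 of 6 control arrays, so it passed the filter through controls alone. Its measured means were 4.92 in maternal obese and 5.29 in control livers, and no difference is given. SELPLG was detected on 3 of 5 maternal obese and 1 of 6 control arrays, with means of 5.38 in maternal obese and 5.18 in control livers, so its difference lies at the detection limit. With slide as a covariate STAT3 stood at -0.24, PSAP at -0.04, EVI2B at -0.30, NCF4 at -0.11, CTSH at 0.16 and IL10 at 0.42. The IL10 probe read 11.27 to 11.65 in maternal obese and 10.92 to 11.33 in control livers. Whether this human probe binds baboon IL10 alone was not tested.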

How the data were processed

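Liver RNA of 11 baboon fetuses was turned into labelled cRNA with a kit of the Illumina Total Prep series, as the labels state. The authors deposited, for each probe and array, a linear intensity with its detection p-value. GenomeStudio and Partek appear in the submitters' processing notes, with no role or version. The deposited log2 values were the log2 of those intensities (largest difference 5e-09), so they were not normalized between arrays. No column of values lacked a sample (0).

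From the intensities, neqc of limma 3.58.1 in R 4.3.3 made a normexp background correction (offset 16), quantile normalization and log2 values. A probe was kept where its detection p was under 0.05 on 4 or more arrays (12065 of 48803). The probe with the highest mean stood for a gene, which gave 10619 features, 8357 of them with a symbol. In the platform annotation 28098 probes had 1 symbol, 13 had several and 20692 were not listed. Differences were tested with lmFit and eBayes over all features, p-values were adjusted by Benjamini-Hochberg and held to 0.05, and there was no covariate for maternal obesity, since the series design names none. Sex was tested with condition as a covariate (and slide as an alternative), and the interaction from 4 group means. SD is the spread between arrays and SE the moderated standard error. The number of arrays limits the precision, and p-values set a difference against the spread between these fetal samples. Without a covariate, slide enters both the difference between conditions and that spread. The steps were tested on simulated data. Other normalizations, filters and covariates, and leaving out each array, were tried as alternatives. The genes, lists and tests were chosen with earlier results of these data known. Of the further pathway lists, the text names the 5 smallest p-values per direction, and outside all lists the 6 features most correlated with the macrophage mean. No sequence is shown, as none was used here.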

Additional observations from a re-analysis of the deposited data

Results flagged for a closer look

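Dixon's test at 95% was run on 74 sets of values, each a gene or the mean of the macrophage genes within 1 condition. In 3 of the 74 sets, 1 array lay far from the others, and chance gives such a gap in about 1 in 20 sets. All sets draw on the same arrays and are not independent. FGR read 6.96 in CON1, against 5.43 to 5.95 in the other controls. MS4A6A read 5.27 in MO4, where its probe was not detected, against 8.70 to 9.57 in the other maternal obese arrays. CTSH, a lysosomal protease of the further pathway lists, read 12.13 in CON4, against 12.59 to 12.79 in the other controls.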

How the results depend on the processing

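The median of the macrophage genes in maternal obese against control livers stayed below 0 under all 25 alternatives, between -0.43 (slide and sex as covariates) and -0.07 (without CON6), and no macrophage gene was called in any. With slide as a covariate or on slide 2 alone, the comparison rests on CON5 and CON6, which lay far apart. No such alternative left out CON6, so whether the sign holds on slide 2 without CON6 was not tested. Median scaling moved the median of all features to -0.13 and that of the macrophage genes to -0.38. Features called went to 1 on the log2 of the deposited intensities, with slide and with sex as covariates, to 7 with array weights, and to 0 to 1 when 1 array was left out. CD68 turned to 0.16 and FGR to 0.0087 with slide as a covariate and on slide 2 alone, and FGR to 0.11 in the males of slide 2. Between slides, the 382 calls became 1117 on the deposited intensities, 17 with median scaling, 219 over features detected on all arrays, 0 in male controls (limma; 1914 at an unadjusted p under 0.05) and 0 to 452 with 1 array left out. There the median ran from -0.25 to 0.43, the macrophage genes called from 0 to 1, and FCER1G from -1.06 to 0.055, MARCO from -0.035 to 0.95 and C1QB from -0.036 to 0.89. For sex the calls became 3 (deposited intensities), 2 (median scaling), 0 (all arrays) and 3 to 5 with 1 array left out, and on the deposited intensities SPI1 turned to -0.063 and FGR to -0.0051. For the interaction 1 feature was called on the deposited intensities and 0 to 15 with 1 array left out. Its median moved to 0.50 (deposited intensities), 0.37 (median scaling), -0.24 (slide as a covariate) and -0.21 to 0.28 with 1 array left out, and MS4A7 turned to 0.18 on the deposited intensities. The causes were not tested. No paired analysis was made, since each array is of another fetus and the labels give no pairing.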

Other observations

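Other cells of the fetal liver were read on the same arrays, with no gene called by limma in maternal obese against control livers. B cell genes, which belong to the blood-forming tissue of the liver, lay below 0 in 4 of 5 measured members of 10, with a median of -0.58. The summed intensity of the 9 B cell markers with a probe, detected or not, was 403 to 458 in maternal obese and 428 to 750 in control livers. CD79A was detected on all arrays, and MS4A1, BLNK and PAX5 on none. Stellate cell and matrix genes lay above 0 in all 9 measured members of 12, with a median of 0.50. MO2 held the highest mean of these genes, 2.42 above the mean of the arrays on the log2 scale, and the other maternal obese arrays lay between -0.56 and 0.14. Sinusoidal endothelial genes had a median of 0.07 in 10 of 12 measured members, hepatocyte genes 0.01 in 10 of 12, erythroid genes 0.12 in 5 of 11, and T and NK cell genes 0.11 in 3 of 12. With slide as a covariate the median of the hepatocyte genes was 0.24 with 1 of 10 below 0, and that of the erythroid genes turned to -0.28 with 4 of 5 below 0. The B cell genes then stood at -0.54, the stellate cell and matrix genes at 0.46, the sinusoidal endothelial genes at 0.10 and the T and NK cell genes at 0.04.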
